A study of Mus musculus with 5 samples.

Results

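Expression of 10 genes that regulate or mark the epithelial-mesenchymal transition (EMT) was examined in prostate tumors of castrated and intact mice. The genes are a list of names known from EMT, drawn up with earlier results of these data known although its rule uses no measured value, out of 24527 genes in the count table. They comprise the transcription factors Snai1, Snai2, Zeb1, Zeb2, Twist1, Twist2 and Prrx1, and the mesenchymal proteins vimentin (Vim), fibronectin (Fn1) and N-cadherin (Cdh2). All 10 had more than 1 CPM (count per 1000000 reads in genes) in at least 2 samples and were among the 14612 genes tested.

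The samples were 5 prostate tumors from TripleTg mice, 3 castrated and 2 intact, and nothing in the labels states whether a replicate is 1 animal or a part of a tumor. All 5 carried the same alleles, a human HGF transgene (hHGFtg), a human MET transgene inserted at the H11 locus (H11 hMET/+), a conditional allele that deletes exon 3 of Ctnnb1 and so stabilizes β-catenin (Ctnnb1 L(Ex3)/+), and PB Cre4, a Cre recombinase driven by the probasin promoter. PB Cre4 acts in prostatic epithelium, so the MET and β-catenin alleles are switched on there and not in stroma, while HGF does not depend on Cre. Castration was performed at 4 months of age and the prostates of both groups were taken at 8 months. There was no group without the transgenes and none at an earlier time after castration. Libraries were made from whole tissue after removal of ribosomal RNA, and the deposited counts summed to between 18951782 and 28015507 reads in genes per sample.

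EMT is a program in which epithelial cells lose their cell-to-cell junctions and apical polarity and take on the shape, motility and intermediate filaments of mesenchymal cells. Snail, ZEB and Twist factors bind E-box sequences and repress epithelial genes such as Cdh1, which encodes E-cadherin, and the ZEB factors are in turn held down by the miR-200 family. In prostate tumors partial EMT has been linked with invasion and with low androgen signaling. In whole tissue the same genes are also read from cells that never were epithelial: fibroblasts, smooth muscle, endothelium and macrophages normally express Vim, and fibroblasts normally express Fn1, Prrx1, Zeb1 and Twist2.

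The E-box letters that Snail and ZEB factors recognize, CAGGTG or CACCTG, were searched on both strands in RefSeq promoters of build GRCm38.p6, which run from 250 bases before to 50 bases after a gene's start. These 2 spellings are reverse complements of each other, so a site on either strand was found by either search. Entries were matched by symbol for 6 of the 10 genes, with 9 start sites. The motif occurred in 1 of the 6, Snai1, beside 20.2% of 32851 promoters of the same length. CTTTGA or TCAAAG, the core letters of TCF/LEF factors that carry β-catenin to DNA, occurred in 0 of the 6, beside 16.0% of all promoters. The Snai1 promoter is shown as the only one of the 6 with the E-box, those of Vim and Twist2 because their levels separated the groups, and that of Epcam, an epithelial adhesion gene, as a counterpart outside the 10 genes with 2 E-boxes. Capitals mark E-boxes, and the sequences are written 5′ to 3′ on the strand of the gene.
Snai1 (chr2:167537945-167538244, plus strand): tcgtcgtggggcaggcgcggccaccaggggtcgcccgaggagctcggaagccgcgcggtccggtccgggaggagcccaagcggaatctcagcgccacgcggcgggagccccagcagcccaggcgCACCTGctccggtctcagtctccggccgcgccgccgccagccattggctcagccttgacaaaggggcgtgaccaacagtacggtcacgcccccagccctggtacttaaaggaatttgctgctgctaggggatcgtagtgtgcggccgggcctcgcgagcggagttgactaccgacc
Vim (chr2:13574061-13574360, plus strand): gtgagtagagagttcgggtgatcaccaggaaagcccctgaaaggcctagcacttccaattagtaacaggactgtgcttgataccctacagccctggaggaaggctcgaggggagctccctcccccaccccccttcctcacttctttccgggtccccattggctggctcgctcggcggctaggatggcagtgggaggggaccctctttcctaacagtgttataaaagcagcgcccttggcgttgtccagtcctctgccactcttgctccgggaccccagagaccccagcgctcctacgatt
Twist2 (chr1:91801211-91801510, plus strand): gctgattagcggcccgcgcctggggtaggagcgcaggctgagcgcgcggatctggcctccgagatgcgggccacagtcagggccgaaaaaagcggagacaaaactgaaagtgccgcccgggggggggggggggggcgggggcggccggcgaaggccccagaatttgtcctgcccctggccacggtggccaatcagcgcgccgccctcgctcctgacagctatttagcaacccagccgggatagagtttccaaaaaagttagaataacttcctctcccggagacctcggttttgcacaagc
Epcam (chr17:87635729-87636028, plus strand): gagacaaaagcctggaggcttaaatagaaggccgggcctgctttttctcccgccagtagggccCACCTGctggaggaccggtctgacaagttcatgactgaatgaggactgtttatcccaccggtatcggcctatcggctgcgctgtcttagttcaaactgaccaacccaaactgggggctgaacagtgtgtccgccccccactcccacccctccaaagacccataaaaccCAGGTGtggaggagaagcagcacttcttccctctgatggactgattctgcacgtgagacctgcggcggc
In Snai1 the E-box began at position -126 from the start site, and in Epcam the E-boxes began at -187 and -19. No binding was measured, and these matches describe letters only.

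The intact tumors differed from each other in a part of their genes. Over 14485 genes with counts in both, the higher intact level was a median of 1.49 times the lower, and 4.32% of genes were more than 10-fold apart. Hoxb13, a prostate homeobox gene, was at 3.45 CPM in intact replicate 1 and 70.7 CPM in intact replicate 2, whereas it was between 5.06 and 25.9 CPM in the castrated samples. It was singled out after its values were seen. Over all genes, the log expression of intact replicate 1 correlated more closely with castrated replicate 1 (Pearson r = 0.922 across genes) than with intact replicate 2 (r = 0.848). Krt8, Krt18 and Epcam, keratins and an adhesion protein of luminal epithelium, were present in every sample, but probasin (Pbsn) was at 0 counts in castrated replicate 2 and intact replicate 1 and reached 5.21 CPM in intact replicate 2. For the EMT genes and the lists whose values turn on it, results are therefore also given with a sample left out.

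No gene in the table passed the threshold of an adjusted p under 0.05 with an absolute log2 fold change above 1 (0%, edgeR quasi-likelihood test with Benjamini-Hochberg adjustment over 14612 genes), and so none of the 10 EMT genes did. The smallest adjusted p of any gene was 0.289. At an unadjusted p under 0.05 with the same fold limit, 1596 genes (10.9%) were found, 7.66% of all genes higher and 3.26% lower in castrated tumors. DESeq2 called 989 genes and edgeR's likelihood ratio test 369 at the adjusted threshold. Of the 10 genes, 7 had a fitted log2 fold change (castrated against intact) above 0 and 3 below, beside 47.9% of all genes above 0. Their median was 0.73, beside -0.03 over all genes tested, and it was 1.83 without intact replicate 1 and 0.53 without intact replicate 2. The groups did not overlap in 3 genes, Vim, Zeb1 and Twist2, all higher in the castrated samples, beside 17% of all genes. The same 3 were those of the 10 with an unadjusted p under 0.05, beside 15% of all genes (8.74% higher and 6.28% lower), and Vim and Twist2 also had an absolute log2 fold change above 1. In none of the 10 did all castrated samples lie below both intact samples, beside 16.1% of all genes.

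**Figure D1:**
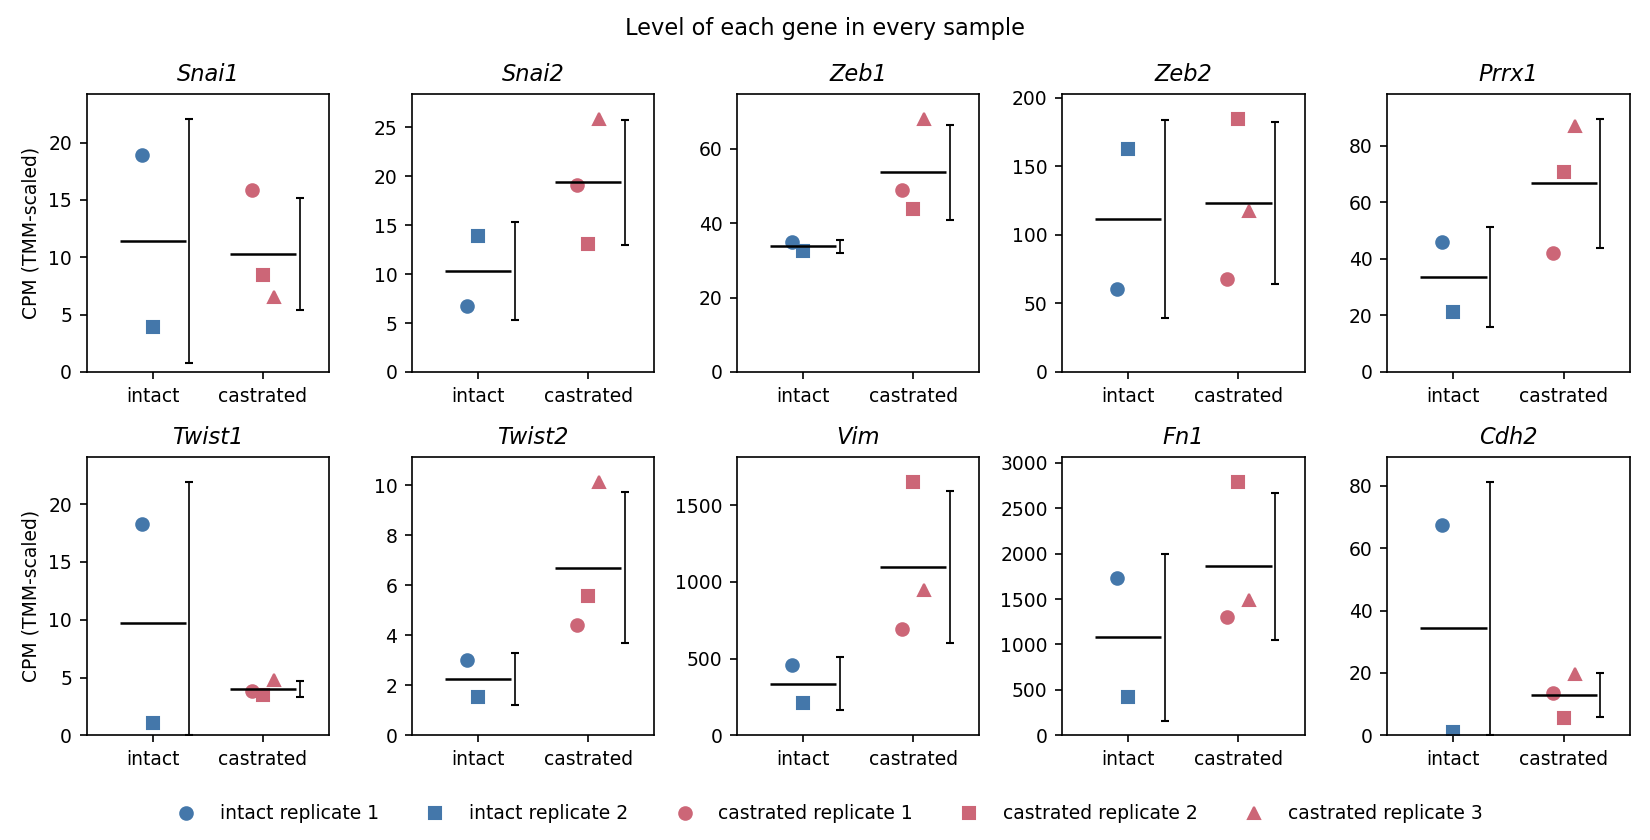
Level of each EMT gene in CPM (scaled by TMM, linear axis from 0) in the 2 intact and 3 castrated samples. Points are samples, horizontal lines are group means, and vertical bars are SD (lower end stopped at 0). Vim, Zeb1 and Twist2 show separate groups, whereas intact replicate 1 is the highest point for Snai1, Twist1 and Cdh2.

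Vimentin showed the highest fitted log2 fold change of the 10 genes. Vim (chromosome 2, 13574311 to 13582826), the intermediate filament protein of mesenchymal cells, was at 692, 1652 and 950.3 CPM in castrated replicates 1 to 3 and at 457 and 213 CPM in intact replicates 1 and 2. Every castrated sample lay above both intact samples. The means were 1098 ± 497 CPM (SD, n = 3) in castrated and 335 ± 173 CPM (SD, n = 2) in intact tumors. The log2 fold change was 1.71 with a standard error of 0.56, an unadjusted p of 0.0265 and an adjusted p of 0.302 (edgeR quasi-likelihood test, Benjamini-Hochberg). It was the only one of the 10 past the adjusted threshold in DESeq2, with a log2 fold change of 1.70 and an adjusted p of 0.0401, beside 6.77% of all genes that DESeq2 called. Leaving out 1 sample at a time gave log2 fold changes from 1.22, without intact replicate 2, to 2.39, without intact replicate 1.

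Fibronectin is an extracellular matrix protein that both fibroblasts and transformed epithelium secrete. Fn1 (chromosome 1, 71585473 to 71653234) was at 1302, 2787 and 1486 CPM in the castrated samples and at 1727 and 427 CPM in the intact samples. Intact replicate 1 exceeded castrated replicates 1 and 3, and only intact replicate 2 lay below them all. A log2 fold change of 0.79 was fitted with a standard error of 0.73 (adjusted p = 0.646, edgeR quasi-likelihood test). It was 2.14 without intact replicate 1 and 0.06 without intact replicate 2.

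N-cadherin, the cadherin that replaces E-cadherin in a classical EMT, varied most among the intact tumors. Cdh2 (chromosome 18, 16588877 to 16809246) was at 13.5, 5.58 and 19.7 CPM in the castrated samples, at 67.4 CPM in intact replicate 1 and at 1.16 CPM in intact replicate 2. The castrated samples thus lay between the intact ones, which differed 58.0-fold from each other, beside the median of 1.49-fold over all genes. The fitted log2 fold change was -1.41 with a standard error of 1.38 (adjusted p = 0.664, edgeR quasi-likelihood test). Its sign followed the choice of intact sample, 3.49 without intact replicate 1 and -2.42 without intact replicate 2.

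Snail family genes did not separate the groups. Snai1 (chromosome 2, 167538195 to 167542811), a zinc finger repressor of Cdh1 that acts early in EMT, was at 15.8, 8.47 and 6.53 CPM in the castrated samples and at 18.95 and 3.90 CPM in the intact samples. The intact samples were the highest and the lowest of the 5. Its log2 fold change was -0.15 with a standard error of 0.75 (adjusted p = 0.941, edgeR quasi-likelihood test), and it was 1.42 without intact replicate 1 and -0.92 without intact replicate 2. Snai2 (chromosome 16, 14705852 to 14709395), which encodes Slug, a relative of Snail also present in basal epithelium, was at 19.2, 13.1 and 25.9 CPM in the castrated samples and at 6.77 and 13.9 CPM in the intact samples. Castrated replicate 2 lay just below intact replicate 2, the sole point of overlap. The log2 fold change of Snai2 was 0.91 with a standard error of 0.47 (unadjusted p = 0.107, adjusted p = 0.411, edgeR quasi-likelihood test), and it stayed above 0 with each sample left out, from 0.50 to 1.47. Per length, the level of Snai1 was 3.52 times that of Snai2 in intact replicate 1 but 0.354 times in intact replicate 2, and it lay between 0.317 and 1.04 times in the castrated samples (ratios of TPM, counts scaled by transcript length and library).

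The ZEB genes differed from each other. Zeb1 (chromosome 18, 5591860 to 5775468), a zinc finger and homeodomain repressor of epithelial genes, was at 49.0, 44.0 and 68.1 CPM in the castrated samples and at 35.1 and 32.6 CPM in the intact samples. All castrated samples lay above both intact samples, and the intact samples were closer together for Zeb1 than for any other of the 10 genes (1.08-fold apart). Its log2 fold change was 0.67 with a standard error of 0.26 (unadjusted p = 0.0474, adjusted p = 0.3296, edgeR quasi-likelihood test), and from 0.46 to 0.80 with each sample left out. Zeb2 (chromosome 2, 44983512 to 45117442), the paralog of Zeb1 that is also abundant in macrophages, was at 67.5, 185 and 118 CPM in the castrated samples and at 60.8 and 163 CPM in the intact samples. Both groups covered almost the same range. For Zeb2 the log2 fold change was 0.14 with a standard error of 0.57 (adjusted p = 0.929, edgeR quasi-likelihood test), -0.38 without intact replicate 1 and 0.98 without intact replicate 2. An antisense gene, Zeb2os, lies within Zeb2 on the other strand with 44 to 155 counts per sample, and because the use of strand in counting is not stated, reads of the pair may not have been told apart.

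Twist1 and Twist2 had fitted values of opposite sign. Twist1 (chromosome 12, 33957671 to 33959831), a basic helix-loop-helix factor of mesoderm, was at 3.80, 3.49 and 4.77 CPM in the castrated samples, at 18.3 CPM in intact replicate 1 and at 1.02 CPM in intact replicate 2. The castrated samples were close together (at most 1.37-fold apart) and, as for Cdh2, lay between the intact samples, which were 17.9-fold apart. The log2 fold change of Twist1 was -1.27 with a standard error of 1.04 (adjusted p = 0.598, edgeR quasi-likelihood test), 1.99 without intact replicate 1 and -2.23 without intact replicate 2. Twist2 (chromosome 1, 91801461 to 91848034), a related factor of dermal and other fibroblasts, was at 4.43, 5.58 and 10.1 CPM in the castrated samples and at 3.002 and 1.53 CPM in the intact samples. Its groups did not overlap, with means of 6.71 ± 3.02 CPM (SD, n = 3) and 2.27 ± 1.04 CPM (SD, n = 2). The log2 fold change of Twist2 was 1.56 with a standard error of 0.58 (unadjusted p = 0.0410, adjusted p = 0.322, edgeR quasi-likelihood test), and from 1.12 to 2.14 with each sample left out. Per length, Twist1 was 4.998 times Twist2 in intact replicate 1, and between 0.386 and 0.703 times in the other 4 samples (TPM ratios).

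Prrx1 (chromosome 1, 163245119 to 163313650), a paired-type homeobox factor of limb and connective tissue mesenchyme that can also drive EMT, was at 42.1, 70.9 and 87.2 CPM in the castrated samples and at 46.0 and 21.1 CPM in the intact samples. Castrated replicate 1 lay just below intact replicate 1, so that the groups overlapped at that point. Its log2 fold change was 0.99 with a standard error of 0.47 (unadjusted p = 0.0845, adjusted p = 0.380, edgeR quasi-likelihood test), and from 0.49 to 1.68 with each sample left out.

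**Figure D2:**
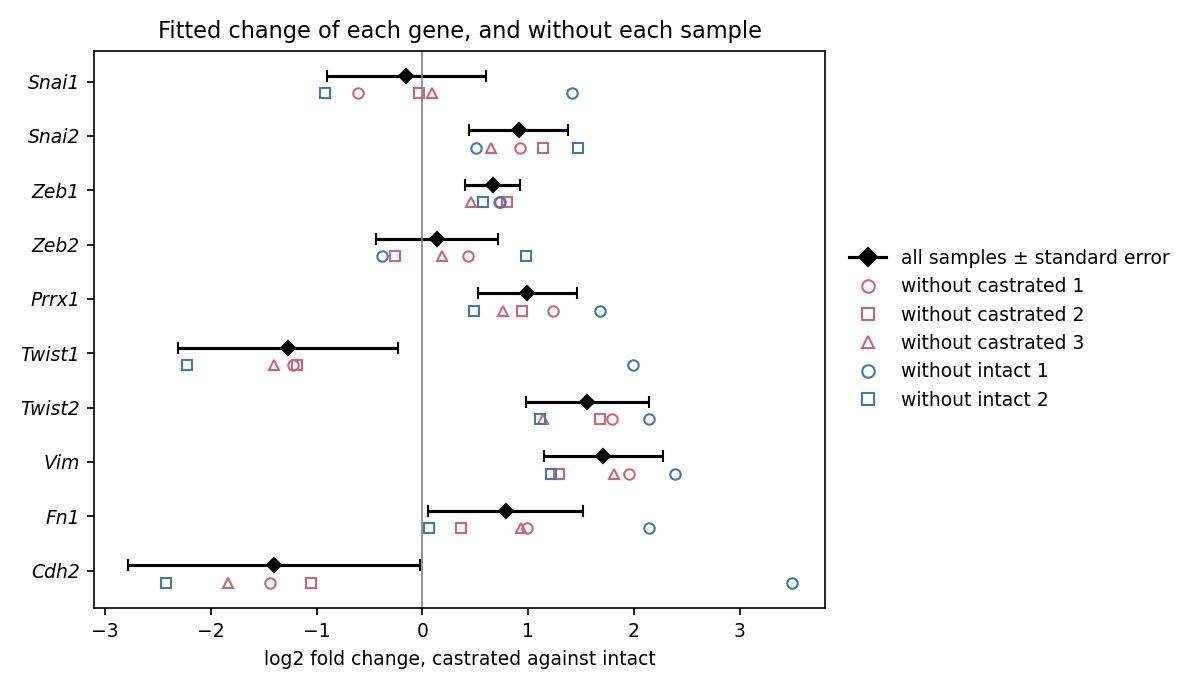
Fitted log2 fold change (castrated against intact, x axis) of each EMT gene. Black diamonds with bars are the fit of all 5 samples ± standard error, and open symbols are the fit without each sample in turn. Cdh2 runs from -2.42 to 3.49 and Twist1 from -2.23 to 1.99 with the choice of intact sample, whereas Vim, Zeb1 and Twist2 remain above 0.

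Across the samples, intact replicate 2 was the low point of the group. It held the lowest level of 8 of the 10 genes, all but Snai2 and Zeb2, beside 27.5% of all genes tested. Intact replicate 1 held the highest level of Snai1, Twist1 and Cdh2, and these 3 were therefore highest in 1 intact tumor and lowest in the other, an order seen in 1166 of all genes (7.98%). Castrated replicate 3 was highest for Snai2, Zeb1, Twist2 and Prrx1, beside 17.2% of all genes. Castrated replicate 2 was highest for Zeb2, Vim and Fn1, beside 15.5%. Castrated replicate 1 was neither the highest nor the lowest for any of the 10. The 10 genes together took 0.226, 0.470 and 0.278% of counts in castrated replicates 1 to 3, and 0.253 and 0.0826% in intact replicates 1 and 2, most of it from Vim and Fn1.

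On a scale that allows genes to be set side by side, TPM computed from the counts and the RefSeq transcript length, the structural genes Vim and Fn1 stood above the rest. Vim had mean levels of 1413 TPM in castrated and 417 TPM in intact tumors, and Fn1 had 521 and 302 TPM. The factors were far lower, with castrated means of 24.7 TPM for Zeb2, 22.3 for Snai2, 21.0 for Prrx1, 20.7 for Zeb1, 14.9 for Snai1, 11.8 for Twist2 and 5.78 for Twist1. Cdh2 had a castrated mean of 6.26 TPM and thus lay among the factors rather than with the other structural genes. Vim lay above Fn1 in every sample and both lay above all factors, whereas among the factors the castrated samples of each pair of neighbors in this order overlapped, apart from Twist2 and Twist1, which did not. In the intact tumors the means were 19.3 TPM for Zeb2, 17.5 for Cdh2, 16.7 for Snai1, 14.5 for Twist1, 12.1 for Zeb1, 10.4 for Snai2, 10.3 for Prrx1 and 3.85 for Twist2, with ranges that overlapped for neighbors.

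Epithelial genes that these factors repress overlapped between groups in the case of Cdh1 and Epcam. Cdh1, encoding E-cadherin, was at 596, 732 and 809 CPM in the castrated samples and at 889 and 690 CPM in the intact samples. Its log2 fold change was -0.15 with a standard error of 0.29 (adjusted p = 0.839, edgeR quasi-likelihood test), and 0.07 without intact replicate 1. Epcam was at 736, 729 and 637 CPM in the castrated samples and at 1325 and 511 CPM in the intact samples, which again enclosed the castrated ones, with a log2 fold change of -0.39 and a standard error of 0.45 (adjusted p = 0.712) that became 0.48 without intact replicate 1. In TPM, N-cadherin was between 0.00697 and 0.0223 times the level of E-cadherin in the castrated tumors, 0.0694 times in intact replicate 1 and 0.00154 times in intact replicate 2, so that E-cadherin exceeded N-cadherin in every sample. In a list of 25 epithelial genes that oppose EMT (junction, keratin, splicing and transcription genes), 0 passed the adjusted threshold, 4 had fitted values above 0 and 21 below, and the median log2 fold change was -0.37 (-0.17 without intact replicate 1), beside -0.03 over all genes. At an unadjusted p under 0.05 there were 2, both lower in castrated tumors, beside 6.28% of all genes, and in 5 of the 25 all castrated samples lay below both intact samples, beside 16.1% of all genes. Ovol1, a zinc finger repressor of Zeb1, had the lowest value, at 4.43, 6.11 and 3.95 CPM in castrated and 6.77 and 21.9 CPM in intact tumors, a log2 fold change of -1.57 (adjusted p = 0.316). Elf3, an epithelial ETS factor, had the highest, 0.49 (adjusted p = 0.530), and Krt8, with the most reads, had 0.04 (adjusted p = 0.974). Esrp2, a splicing regulator of epithelial isoforms and the other gene with an unadjusted p under 0.05, was at 58.4, 49.1 and 47.6 CPM in castrated and 96.8 and 88.7 CPM in intact tumors, a log2 fold change of -0.84 (edgeR quasi-likelihood test, unadjusted p = 0.00529, adjusted p = 0.289). It was named after its values were seen.

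Other factors tied to EMT had fitted values on both sides of 0. Among 12 tested of 14 of these transcription factors, 5 had fitted values above 0 and 7 below, with a median log2 fold change of -0.16 and 0 past the adjusted threshold. The median was 0.60 without intact replicate 1 and -0.59 without intact replicate 2. Fosl1, an AP-1 subunit, had the lowest at -1.48 (adjusted p = 0.590), and was highest in intact replicate 1 (22.8 CPM) and lowest in intact replicate 2 (0.744 CPM), the order of Snai1, Twist1 and Cdh2. Tcf4, a helix-loop-helix partner of Twist and the gene of the list with the most reads, had -0.44 (adjusted p = 0.757). Gsc and Snai3 were too low to be tested.

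Of 24 other mesenchymal markers, 11 had fitted values above 0 and 13 below, and 0 passed the adjusted threshold. Their median of -0.026 lay close to that of all genes (-0.028), but was 1.06 without intact replicate 1 and -0.56 without intact replicate 2. Acta2, the actin of smooth muscle and activated fibroblasts, had the highest value, at 162, 303 and 221 CPM in castrated and 77.1 and 57.5 CPM in intact tumors. Its groups did not overlap, and the log2 fold change was 1.76 with a standard error of 0.34 (edgeR quasi-likelihood test, unadjusted p = 0.00298, adjusted p = 0.289). Loxl2, a collagen crosslinking enzyme, had the lowest at -0.67 (adjusted p = 0.699). Thbs1, a matrix glycoprotein and the gene with the most reads, was at 2280 CPM in intact replicate 1 and 267 CPM in intact replicate 2, with a log2 fold change of -0.13 (adjusted p = 0.961).

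**Figure D3:**
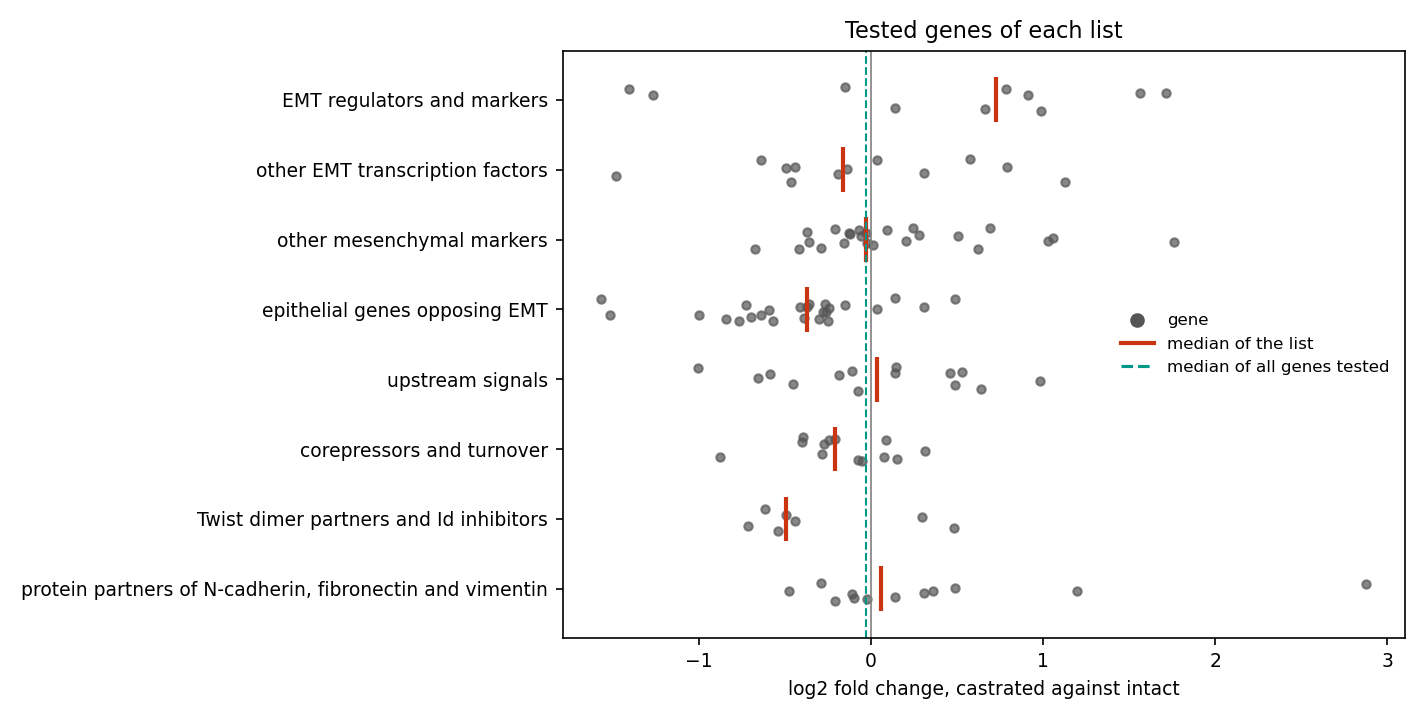
Log2 fold change (castrated against intact, x axis) of every tested gene in the EMT gene group and 7 related lists. Each point is a gene, red bars are list medians and the dashed line is the median of all genes tested (-0.03). The EMT genes have a median of 0.73 and spread from -1.41 to 1.71, whereas the epithelial genes that oppose EMT have a median of -0.37.

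Upstream of the factors, the engineered pathways were read through the mouse genes, since human HGF and MET transcripts were not counted as such. Mouse Hgf, the stromal ligand, was at 191, 87.7 and 156 CPM in castrated and 92.8 and 53.8 CPM in intact tumors, with a log2 fold change of 0.98 and a standard error of 0.42 (adjusted p = 0.354, edgeR quasi-likelihood test). Mouse Met, its receptor tyrosine kinase, was at 189, 138 and 131 CPM in castrated and 434 and 178 CPM in intact tumors, with a log2 fold change of -1.01 and a standard error of 0.41 (adjusted p = 0.344). Both sets of groups overlapped by a single sample. Without intact replicate 1 the log2 fold change was 1.45 for Hgf and -0.20 for Met, and without intact replicate 2 it was 0.60 and -1.55. Ctnnb1, which encodes β-catenin and whose count joins the normal and the exon-deleted transcripts, was at 2902, 1334 and 1189 CPM in castrated and 1812 and 765 CPM in intact tumors, a log2 fold change of 0.49 (adjusted p = 0.744) that was -0.03 without castrated replicate 1, -0.04 without intact replicate 2 and 1.26 without intact replicate 1. Tgfb1, the ligand most used to induce EMT, had -0.08 (adjusted p = 0.941) and ran from -0.54 to 0.54 with a sample left out. Of the 14 genes in the list of upstream signals, 7 had fitted values above 0 and 7 below, with a median of 0.03 (from -0.11 to 0.24 with a sample left out), and 0 passed the adjusted threshold.

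Corepressors and turnover factors that act with Snail and ZEB proteins comprised 13 tested genes, 4 above 0 and 9 below with a median of -0.21 (-0.05 without intact replicate 1), and 0 passed the adjusted threshold. Ezh2, the histone H3 methyltransferase of Polycomb, had the lowest value, at 29.9, 26.1 and 26.9 CPM in castrated and 44.0 and 57.7 CPM in intact tumors, and its groups did not overlap. Its log2 fold change was -0.88 with a standard error of 0.22 (edgeR quasi-likelihood test, unadjusted p = 0.00866, adjusted p = 0.290). Hdac1, a histone deacetylase, had the highest at 0.31 (adjusted p = 0.632), and Gsk3b, the kinase that marks Snail for degradation and the gene with the most reads, had -0.28 (adjusted p = 0.498). Of 7 Twist dimer partners and Id inhibitors, 2 lay above 0 and 5 below with a median of -0.49, from Id1 at -0.71 to Id2 at 0.48, and the median was 0.17 without intact replicate 1 and -0.53 without intact replicate 2. Of 12 genes whose proteins bind N-cadherin, fibronectin or vimentin, 6 lay above 0 and 6 below with a median of 0.06, which was 0.83 without intact replicate 1 and -0.22 without intact replicate 2. Des, the intermediate filament of muscle that pairs with vimentin, was at 24.4, 44.1 and 55.2 CPM in castrated and 7.35 and 3.86 CPM in intact tumors, a log2 fold change of 2.88 with a standard error of 0.52 (edgeR quasi-likelihood test, unadjusted p = 0.00211, adjusted p = 0.289), and Ctnnd1, the p120 catenin of cadherin junctions, had the lowest at -0.48 (adjusted p = 0.380). In these last 2 lists 0 genes passed the adjusted threshold as well.

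Fibroblast, smooth muscle and macrophage markers were higher in the castrated samples along with Vim, Zeb1 and Twist2. Fewer cells of a type and less RNA per cell cannot be told apart in bulk samples. Of 8 fibroblast markers, 7 were higher in every castrated than in every intact sample, beside 17% of all genes, with a median log2 fold change of 1.69. Their summed level was 2103, 4060 and 6057 CPM in castrated and 1023 and 954 CPM in intact tumors, led by Dcn, a matrix proteoglycan. All 8 smooth muscle markers and all 9 macrophage markers were likewise separated, with medians of 2.73 and 1.43. With a sample left out, the medians ran from 1.39 to 1.89 for fibroblast, 2.40 to 3.06 for smooth muscle and 0.99 to 1.62 for macrophage markers. Smooth muscle markers summed to 397, 737 and 686 CPM in castrated and 206 and 147 CPM in intact tumors, led by Acta2. Macrophage markers summed to 1051, 2636 and 1344 CPM in castrated and 552 and 606 CPM in intact tumors, led by the lysosomal protein Cd68. The matrix genes Col1a1 (-0.36), Col1a2 (0.01), Col3a1 (0.09) and Sparc (-0.15) were not among the fibroblast markers, and their groups overlapped. They belong to the list of other mesenchymal markers, of which 2 of 24 were separated, both higher in castrated tumors. The highest sample for macrophage markers, castrated replicate 2, was also the highest for Vim, Zeb2 and Fn1. It was highest as well for smooth muscle, lymphocyte, adipocyte and Schwann cell sums, and for 15.5% of all genes. The highest for fibroblast markers, castrated replicate 3, was also the highest for Zeb1, Twist2, Prrx1 and Snai2. That sample was highest as well for basal, mesothelial, neuroendocrine and skeletal muscle sums, and for 17.2% of all genes.

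Endothelial markers, led by Cdh5, were higher in every castrated than in every intact sample in 3 of 8, beside 17% of all genes, with a median of 0.55 and summed levels of 414, 260 and 316 CPM in castrated and 431 and 158 CPM in intact tumors. Against the same 17%, pericyte markers, led by Rgs5, were separated in 1 of 5 (median 0.41), lymphocyte markers, led by Ptprc, in 4 of 10 (median 1.87), and adipocyte markers, led by Fabp4, in 5 of 8. Ptprc made up most of the lymphocyte sum in every sample, and the lymphocyte markers ran from -1.71 for Cd8a to 4.56 for Ms4a1. Among the separated adipocyte markers, Plin1 had only 3 counts in castrated replicate 1, against 2 and 0 in intact replicates 1 and 2. Retn had 2 counts there, against 1 and 0, so these separations lay near the floor. The adipocyte markers summed to 53.5, 661 and 607 CPM in castrated and 35.8 and 90.5 CPM in intact tumors, with Cfd and Lep at 0 counts in both intact samples. Their median log2 fold change was 9.11 as fitted, 8.92 with Cfd and Lep set to the bound that 3 counts in each intact library give, and from 1.58 to 9.86 with a sample left out. Neuroendocrine markers, led by Chgb, were separated in all 5 that were tested of 6, with a median of 3.38, but summed to at most 30.1 CPM in any sample. Schwann cell markers, led by S100b, were separated in 2 of the 4 tested (median 1.65), mesothelial markers, led by Msln, in 1 of 4 (median 0.78), and the single skeletal muscle marker tested, Mylpf, was not (-0.31). Luminal epithelial markers, led by Krt8, were separated in 0 of 6 with a median of -0.33 and summed to 2549, 2265 and 2884 CPM in castrated and 3618 and 2987 CPM in intact tumors. Basal epithelial markers, led by Krt5, were separated in 1 of 4, had a median of -0.20 and summed to 76.4 CPM in intact replicate 1 and 702 CPM in intact replicate 2, with castrated samples between 314 and 852 CPM. With a sample left out, several of these medians changed sign, running from -0.28 to 1.65 for pericyte, -0.04 to 1.14 for endothelial, -0.50 to 1.97 for mesothelial, -0.38 to 0.41 for luminal and -1.07 to 2.705 for basal markers. The lymphocyte median ran from 1.26 to 4.18, the Schwann cell median from 0.56 to 3.14 and the neuroendocrine median from 3.27 to 4.37. No defining marker was at 0 in all samples.

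**Figure D4:**
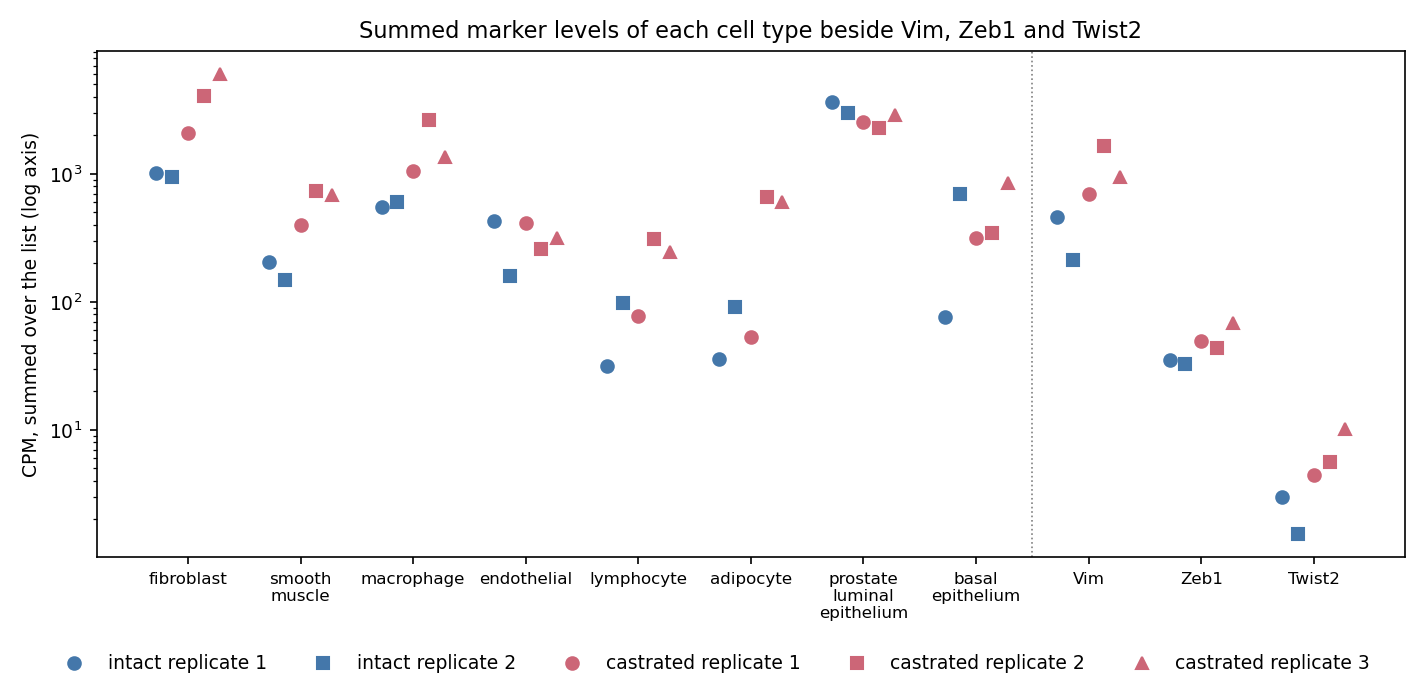
Level in every sample (CPM, log axis) summed over the markers of 8 cell types, and of Vim, Zeb1 and Twist2 at the right of the dotted line. Each point is 1 sample. Fibroblast, smooth muscle and macrophage sums, as well as the 3 EMT genes, are higher in each castrated than in each intact sample, whereas luminal sums are lower in the castrated samples.

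Set against these sums within each sample, Vim overlapped between groups for the macrophage, fibroblast and smooth muscle lists and stayed separate for the endothelial list. Vim was 0.658, 0.627 and 0.707 times the summed macrophage level in castrated and 0.829 and 0.350 times in intact tumors, which overlap. Over fibroblast markers it was 0.329, 0.407 and 0.157 times in castrated and 0.447 and 0.223 times in intact tumors, and over smooth muscle markers 1.74, 2.24 and 1.39 times against 2.22 and 1.44 times. Over endothelial markers it was higher in each castrated sample, at 1.67, 6.35 and 3.01 times in castrated and 1.06 and 1.34 times in intact tumors. Twist2 likewise overlapped between groups over the fibroblast, macrophage and smooth muscle sums. Over the endothelial sum Twist2 was higher in each castrated sample, at 0.0107, 0.0214 and 0.0321 times against 0.00697 and 0.00969 times. However, Cdh5 alone gave 227 of the 431 CPM of the endothelial sum in intact replicate 1, beside 41.4 to 82.4 CPM in the other samples. That 1 marker lowered the ratios of intact replicate 1, and the separation of Vim and Twist2 over this sum depended on it. Zeb1 was lower in each castrated than in each intact sample over the fibroblast sum, at 0.0233, 0.0108 and 0.0112 times against 0.0343 and 0.0342 times, and likewise over the macrophage and smooth muscle sums. Over the endothelial sum the groups of Zeb1 overlapped. Zeb2 was lower in each castrated sample over the fibroblast, macrophage and smooth muscle sums, and Prrx1 over the fibroblast and smooth muscle sums. The fibroblast, macrophage and smooth muscle sums were themselves higher in every castrated sample. A gene that was flat or rose less than they did can therefore come out lower over them. The share of all genes that do so was not computed. The luminal sum was lower in every castrated sample, which raises ratios to it. Ratios of Vim, Zeb1 and Twist2 to that sum are not given, since they had to separate. Snai2, Fn1 and Prrx1, whose own levels overlapped between groups, were higher over the luminal sum in each castrated sample. Prrx1 was at 0.0165, 0.0313 and 0.0302 times in castrated and 0.0127 and 0.00707 times in intact tumors. Snai1, Zeb2, Twist1 and Cdh2 overlapped over the luminal sum. The part of stromal and immune cells in the EMT gene values was not tested.

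Genes whose pattern over the 5 samples was nearest to each EMT gene were listed among 12219 genes with a mean of at least 5 CPM, by the root mean square difference of centered log2 CPM. The closest was Plod2, a collagen lysyl hydroxylase, beside Snai1, with a difference of 0.04, followed by Phlda1 and Fam43a. Zeb1 had Zscan2, Calm3 and Tmem176b, and Zeb2 had Capg, Lpcat2 and Gcnt1. Vim had H2-Q6, Pmp22 and Ttyh2, Fn1 had Cyba, St6galnac4 and Tlr6, and Prrx1 had Arsa, Fzd1 and Tram2. Snai2 had Amigo2, Oplah and Galm, Twist2 had Lgi4, Serping1 and Dact3, and Twist1 had Arhgef38, Epop and Mtmr7. Cdh2 had the loosest match, with a difference of 0.58 to Igdcc4, followed by Syt13 and Ccdc141. With 5 samples such likeness is a description only.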

How the data were processed

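Per the labels, RNA came from prostate tumors and libraries from a ribosomal RNA depletion kit. According to the submitters' processing notes and the study's methods, the authors used Trimmomatic 0.39 for trimming, STAR 2.7.9 for alignment to build mm10 and HTSeq 2.0.2 for counting reads in genes. The deposited values are whole-number counts per gene, not normalized, and the strand setting is not given in the sources used here. The gene length in the table served for TPM only, and 0 columns of other samples were present.

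Counts were tested with edgeR 4.0.16 in R 4.3.3 (TMM scaling, quasi-likelihood F-test, all 5 samples, no covariates), on genes with CPM above 1 in at least 2 samples. The call threshold was an adjusted p (Benjamini-Hochberg, over all genes tested) under 0.05 with an absolute log2 fold change above 1, as in the study's methods. CPM in the text are TMM-scaled, and centered log2 CPM used a prior count of 2. The code was tested on simulated data. No pair of samples within a group agreed within sampling noise. If replicates are not separate animals, p-values cover only the spread between these samples.

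Alternatives were DESeq2 1.42.0, limma 3.58.1 (voom), edgeR's likelihood ratio test and its older quasi-likelihood fit, other scaling and filters, omission of the 20 most abundant genes, a replicate block, and leaving out each sample. The older fit and leaving out samples with the filter kept were chosen after seeing the data. The EMT genes and all lists were chosen with earlier results of these data known. Named from each list were the genes with the highest and the lowest log2 fold change and the most abundant gene, from each cell type its most abundant gene, and in every case Cdh1, Epcam, Hgf, Met, Ctnnb1 and Tgfb1, and for each EMT gene the 3 nearest genes by pattern. Some genes that this rule would name are not reported here.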

Additional observations from a re-analysis of the deposited data

How the results depend on the processing

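The limits of these data are the 2 intact samples, which lie on both sides of all castrated samples for Snai1, Twist1 and Cdh2, and the lack of any sorted cells. A fit without 1 intact sample takes the spread of the lone sample to be that of the castrated group. Depth was not the limit for the EMT genes, whose lowest level was 1.02 CPM in a library where 3 counts correspond to 0.139 CPM.

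At the adjusted threshold 0 genes were called, and 0 to 1 with each sample left out. DESeq2 called 989 (703 higher and 286 lower in castrated tumors) and the likelihood ratio test 369 (276 and 93). At an unadjusted p under 0.05 with an absolute log2 fold change above 1, 1596 genes were found, and between 867 and 2588 with each sample left out. Without castrated replicate 2 there were 893, without castrated replicate 3 there were 867 and without intact replicate 1 there were 2570, and the replicate block gave 975. Between 6 and 9 of the 10 EMT genes had fitted values above 0 with each sample left out, and between 7 and 9 under the other alternatives.

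Vim, Zeb1, Twist2, Snai2, Prrx1, Fn1, Hgf and Met kept their direction under every alternative run. With each sample left out, Snai1 ran from -0.92 to 1.42, Zeb2 from -0.38 to 0.98, Twist1 from -2.23 to 1.99, Cdh2 from -2.42 to 3.49, Cdh1 from -0.36 to 0.066, Epcam from -0.96 to 0.48, Tgfb1 from -0.54 to 0.54 and Ctnnb1 from -0.045 to 1.26. With limma voom, Snai1 was at 0.20 and Cdh2 at 0.36. With the replicate block, Snai1 was at 0.42 and Tgfb1 at 0.12. The cause of these reversals was not tested. Replicate numbers were shared by castrated and intact tumors of different animals, with correlations of their deviations of 0.15 for number 1 and -0.04 for number 2, so the block was not used elsewhere. Zeb1 had an adjusted p of 0.198 and Twist2 of 0.120 in DESeq2, over ranges of 0.198 to 0.803 and 0.120 to 0.776 across the alternatives, and the range for Vim was 0.0401 to 0.747. No scaling moved the median of all genes by over 0.1.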
